A study of Mus musculus with 10 samples.

Results

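Matricellular proteins were followed through the cells of mouse lymph nodes as a list of 10 genes, chosen by name among the 32285 genes of the count tables: Postn, Tnc, Thbs1, Thbs2, Thbs4, Sparc, Fn1, Ccn1, Ccn2 and Spp1. Earlier results of these data were known when the list was chosen, so its counts are not independent of them. The samples were axillary nodes of 8-week-old female wild-type BALB/c mice, profiled with a droplet method that counts unique molecular identifiers (UMIs) at the 3′ end of transcripts. The 4T1 and 67NR groups carried orthotopic mammary tumours of these mouse carcinoma lines, grown in the 4th mammary pad for 18 days to 500 mm3. The LPS group had received lipopolysaccharide under the skin 72 hours before, and the naive group was untreated. Of the 10 samples of the series, 2 gene libraries were used, each with its own antibody library for the hashtags. The stromal library held hashtags for 4T1, 67NR, LPS and naive, and the myeloid and stromal library held hashtags for 4T1, 67NR and naive. Each condition had 1 hashtag per library with no map from cells to mice, so the mice of a condition could not be separated. The labels do not state whether different mice went into each library. A p-value between conditions thus reflects how far the differences between conditions varied from library to library, which could be technical. Differences in level between the libraries were taken out by a block. A p-value between gates rests on the conditions of 1 library, taken as pairs, and holds no variation between libraries.

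Matricellular proteins are secreted into the extracellular matrix, where they bind collagen, growth factors and cell surface receptors such as integrins, and act as modulators of cell behaviour more than as structural beams. Their genes are typically low in resting tissue and induced at wounds, in fibrosis and around tumours, often downstream of TGF-beta and mechanical signalling. In lymph nodes the matrix is made mainly by fibroblastic reticular cells of the T zone and by adventitial fibroblasts around vessels and under the capsule, beside the blood and lymphatic endothelium. Fibronectin (Fn1) is a structural glycoprotein by many definitions and is kept here because the list holds it.

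All 10 genes are annotated as protein coding in GENCODE on GRCm38 (mm10). Postn lies at chr3:54361109-54391037 (plus strand), Tnc at chr4:63959785-64047015 (minus), Thbs1 at chr2:118111876-118127133 (plus), Thbs2 at chr17:14665500-14694235 (minus) and Thbs4 at chr13:92751590-92794818 (minus). Sparc lies at chr11:55394500-55423183 (minus), Fn1 at chr1:71585520-71653200 (minus), Ccn1 at chr3:145646976-145649981 (minus), Ccn2 at chr10:24595442-24598683 (plus) and Spp1 at chr5:104435118-104441050 (plus). Tnc, Thbs1, Fn1, Ccn2 and Spp1 overlap another annotated gene (8030451A03Rik, Gm29233, Apol7d, Gm15270 and Gm42793), and UMIs of overlapping genes could not be told apart here beyond the authors' counting.

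Promoter sequence from RefSeq (GRCm38.p6) was matched for 7 of the 10 genes, and Thbs1, Fn1 and Ccn2 had no entry in that table. The promoters of Postn and Tnc are shown because these genes had the largest differences between tumour-draining and naive fibroblasts, and that of Ccn1 because it was several times higher in lymphatic endothelial cells of tumour-draining than of naive nodes. Each line gives 150 bases ending at the base before the start site, 5′ to 3′ on the strand of the gene, with capitals for the letters of a searched motif.
Postn, chr3:54360957-54361106: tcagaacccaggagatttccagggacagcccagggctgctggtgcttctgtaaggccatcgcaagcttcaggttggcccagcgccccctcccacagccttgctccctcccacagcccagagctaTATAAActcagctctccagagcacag
Tnc, chr4:64047016-64047165: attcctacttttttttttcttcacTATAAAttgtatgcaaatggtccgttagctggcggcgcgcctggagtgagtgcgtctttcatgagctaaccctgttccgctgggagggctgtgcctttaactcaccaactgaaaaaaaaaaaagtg
Ccn1, chr3:145649986-145650135: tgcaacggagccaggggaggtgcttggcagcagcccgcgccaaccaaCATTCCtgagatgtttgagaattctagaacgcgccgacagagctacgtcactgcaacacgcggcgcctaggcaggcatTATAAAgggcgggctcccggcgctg

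The motifs were searched on both strands over the 250 bases before each start site. The TATA box was searched as TATAAA. The core letters bound by TEAD factors, the partners of YAP, were searched as GGAATG. The AP-1 motif was searched as TGANTCA, and the box bound by SRF by its name, CArG. TATAAA stands at bases -26 to -21 before the start of Postn, at -25 to -20 before Ccn1 and at -126 to -121 before Tnc. The Ccn1 window also holds the TEAD letters at -103 to -98, on the reverse strand. Of 32851 mouse promoter windows of that length, 12.4% held TATAAA, 12.6% the TEAD letters, 6.75% the AP-1 letters and 1.47% the CArG box. RefSeq gives a second start site for Postn and for Tnc. The other Postn window held none of the motifs. The other Tnc window overlaps the printed one and held the same TATAAA, at -205 to -200 before its own start. The windows printed are those with the motif nearest to the start. These matches describe letters and do not show binding.

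Cells were sorted into marker gates by how many genes of a marker list had at least 1 UMI. The stromal library gave 2350 cells with a single hashtag (median 12899 UMIs) out of 3507 barcodes. The myeloid and stromal library gave 5412 cells (median 10802.5 UMIs) out of 7823. The libraries shared 6 barcodes. The fibroblast gate, which needed 4 of 7 markers such as Pdgfra, Dcn and Col1a1, held 158 cells of 4T1, 571 of 67NR, 380 of LPS and 188 of naive nodes in the stromal library, and in the myeloid and stromal library 174 cells of 4T1, 241 of 67NR and 171 of naive nodes. The blood endothelial gate held 173, 182, 127 and 148 cells of 4T1, 67NR, LPS and naive nodes and the lymphatic endothelial gate 36, 64, 23 and 20, all in the stromal library. The label of the myeloid and stromal library names endothelial cells too, but 0 of its cells reached either endothelial gate. Its monocyte and macrophage gate held 546, 221 and 194 cells of 4T1, 67NR and naive nodes, its neutrophil gate 260, 795 and 671 and its dendritic gate 141, 122 and 427. UMIs were summed per library, gate and condition and are given as CPM, that is, each gene's UMIs scaled to the same total in every sum. Intervals in brackets are 95% intervals that cover counting error only.

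Abundant genes showed a low level in cells that should lack them. The lymphocyte gate (478 cells of the myeloid and stromal library, median 9498 UMIs) served to measure it. Free RNA, doublets and low expression could not be told apart in that gate. There, Postn stood at 10.2 CPM, Thbs1 at 10.9, Sparc at 9.80, Fn1 at 24.8 and Spp1 at 9.80 CPM, while Tnc, Thbs2, Ccn1 and Ccn2 were below 3 CPM and Thbs4 had no UMI. At least 1 Postn UMI was found in 77.0% of cells of the fibroblast gate (586 cells, median 16312 UMIs) against 7.95% of lymphocytes. For Sparc the shares were 98.3% and 9.0%, and for Fn1 94.0% and 24.5%. Spp1 was found in 9.04% of fibroblast-gate cells and 9.83% of lymphocytes, so Spp1 in fibroblasts was at background.

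The matricellular genes divided between the gates. Sparc and Fn1 had their highest means in fibroblasts, and Postn was shared by fibroblasts and lymphatic endothelial cells. Tnc had its highest mean in lymphatic endothelial cells, and Thbs1 was shared by fibroblasts and myeloid cells. Spp1 (osteopontin, a secreted phosphoprotein that binds integrins and CD44) was a gene of neutrophils. Postn (periostin, a collagen-binding protein that recruits lysyl oxidase activity) averaged 1374 ± 1057 CPM over the 7 fibroblast sums and 764 ± 240 CPM over the 4 lymphatic endothelial sums (SD). These ranges overlapped. In the blood endothelial, monocyte and macrophage, neutrophil and dendritic gates the mean of Postn was between 4.01 and 13.6 CPM, close to the level in lymphocytes. Sparc (osteonectin, a collagen-binding protein) averaged 2423 ± 840 CPM in the fibroblast gate, 1464 ± 121 CPM in the blood endothelial gate and 475 ± 197 CPM in the lymphatic endothelial gate, and stayed at or below 12.6 CPM in the myeloid gates. Fn1 averaged 4188 ± 2431 CPM in fibroblasts, 406 ± 155 CPM in the monocyte and macrophage gate and 403 ± 173 CPM in the lymphatic gate, and the last 2 did not differ beyond their spread. In the blood endothelial gate Fn1 averaged 30.9 CPM, near the 24.8 CPM of lymphocytes.

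Tnc (tenascin-C, a large anti-adhesive glycoprotein) averaged 948 ± 334 CPM in the lymphatic endothelial gate, 98.8 ± 124 CPM in the fibroblast gate and at most 3.61 CPM elsewhere. Thbs1 (thrombospondin-1, which activates latent TGF-beta and inhibits angiogenesis through CD36 and CD47) averaged 980 ± 280 CPM in the monocyte and macrophage gate, 436 ± 296 CPM in the fibroblast gate and 390 ± 293 CPM in the neutrophil gate. The fibroblast and neutrophil ranges of Thbs1 overlapped. Ccn1 (CYR61, an integrin ligand and YAP target) averaged 418 ± 303 CPM in the lymphatic gate, 390 ± 111 CPM in fibroblasts and 176 ± 23.1 CPM in blood endothelium, so the first 2 could not be ordered. Thbs2, a close relative of Thbs1, averaged 57.6 ± 13.9 CPM in fibroblasts and at most 6.99 CPM in any other gate. Spp1 averaged 1293 ± 969 CPM in the neutrophil gate and 87.2 ± 24.3 CPM in the monocyte and macrophage gate. Thbs4 and Ccn2 (connective tissue growth factor) were low throughout, with fibroblast means of 18.7 ± 16.8 and 26.7 ± 19.4 CPM.

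**Figure D1:**
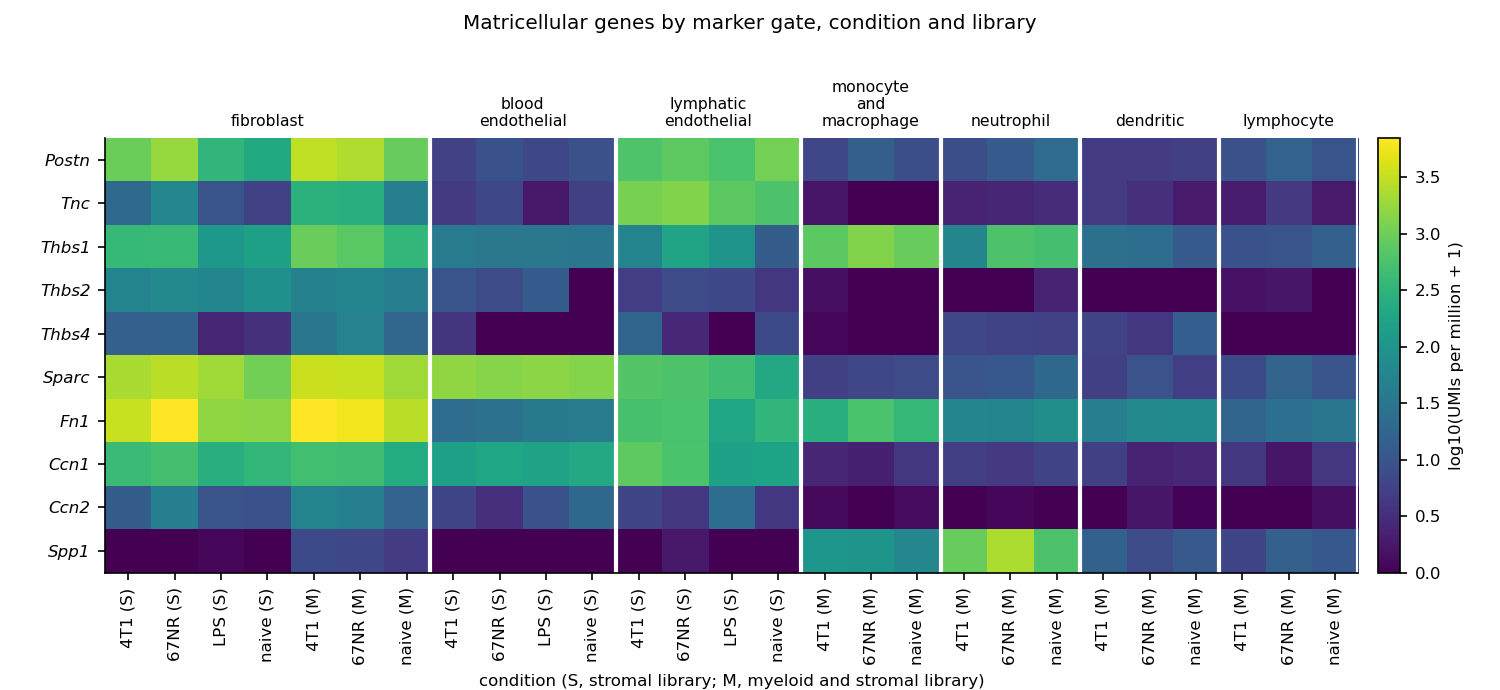
Level of each of the 10 genes (rows) in each gate, condition and library (columns), as log10(CPM + 1) on the colour scale. Sparc is bright in the fibroblast and both endothelial gates. Postn is bright in the fibroblast and lymphatic endothelial gates, and Fn1 in these and in the monocyte and macrophage gate. Tnc is bright in the lymphatic endothelial gate and Thbs1 in fibroblast, monocyte and macrophage and neutrophil sums. Spp1 is bright in the neutrophil gate, where 67NR reached 2398 CPM.

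The gates were compared with a quasi-likelihood test of edgeR on the sums of both gates, with library and condition as a block and Benjamini-Hochberg adjustment over all genes tested. Endothelial gates had sums in the stromal library alone, so the pairs were conditions of 1 library and not replicates. Against blood endothelium (4 pairs of sums), 7 of the 8 tested genes were higher in fibroblasts, where 30.9% of all 11104 genes were higher and 56.2% differed in either direction. The log2 difference was 7.09 for Postn (edgeR adjusted p = 8.74e-09), 6.75 for Fn1, 3.04 for Thbs1 and 0.58 ± 0.17 for Sparc (SE, edgeR adjusted p = 0.0119). Against lymphatic endothelium, where 42.2% of genes differed, Tnc was lower in fibroblasts by a log2 difference of -5.52 ± 0.34 (SE, edgeR adjusted p = 7.48e-08). Fn1 was higher by 3.09, Sparc by 2.33, Thbs1 by 1.87 and Thbs2 by 3.73, while Postn (-0.05 ± 0.45, edgeR adjusted p = 0.943) and Ccn1 (0.30, edgeR adjusted p = 0.410) did not pass. The sign of Postn and of Ccn1 in that comparison turned when the gates needed 1 more marker (0.94 and -0.65). Both then passed (edgeR adjusted p = 3.76e-05 and 0.00442), in a fit without the naive pair, whose lymphatic sum had under 20 cells. Its fibroblasts came from the stromal library, where Tnc was 31.7 CPM over the whole gate, against 214 CPM in the other library.

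In the myeloid and stromal library (3 pairs of sums) the fibroblast gate was compared with the myeloid gates. The pairs were again conditions of that library and not replicates. Against monocytes and macrophages, where 68.4% of genes differed, Thbs1 was lower in fibroblasts by a log2 difference of -0.85 ± 0.30 (SE, edgeR adjusted p = 0.0341) and Spp1 by -4.25 ± 0.18 (SE, edgeR adjusted p = 7.60e-07). Fn1 was higher in fibroblasts by 3.45. Against neutrophils, where 75.8% of genes differed, Spp1 was lower in fibroblasts by -8.89 ± 0.51 (SE, edgeR adjusted p = 1.78e-07), and Thbs1 did not pass (-0.12 ± 0.79, edgeR adjusted p = 0.900). Against dendritic cells, where 66.6% of genes differed, Spp1 was lower (-1.29, edgeR adjusted p = 0.0123) and Thbs4 higher by 1.72 ± 0.62 (SE, edgeR adjusted p = 0.0452) in fibroblasts.

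Fibroblasts of tumour-draining nodes held more of most matricellular transcripts than naive ones, in both libraries. Over 67NR and naive nodes, Postn, Tnc, Thbs1 and Sparc rose past the threshold, by 2-fold or more on the linear scale. The 4T1 nodes lay on the same side with similar sizes, but no gene passed in that comparison. In each library, every sum of 4T1 and of 67NR was above the naive sum for Postn, Tnc, Thbs1, Thbs4, Sparc, Fn1, Ccn1 and Ccn2. Thbs2 went both ways and Spp1 was at background.

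Postn stood at 959 CPM in 4T1, 1802 in 67NR, 338 in LPS and 213 in naive fibroblasts of the stromal library. Within the myeloid and stromal library it was 2970 CPM in 4T1, 2442 in 67NR and 891 in naive fibroblasts. The tumour groups were above naive within each library, but 4T1 of the stromal library lay close to naive of the other, so the ranges nearly met across libraries. Postn rose in 67NR over naive fibroblasts by 2.31 ± 0.36 on the log2 scale (SE, edgeR adjusted p = 0.0419). In 4T1 over naive the difference was 1.95 ± 0.35 (SE, edgeR adjusted p = 0.0990).

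Fn1, the fibrillar adhesive protein that other matricellular proteins bind to, had 3395 CPM in 4T1, 6966 in 67NR, 1598 in LPS and 1486 in naive fibroblasts of the stromal library. Within the myeloid and stromal library it had 7048 CPM in 4T1, 5963 in 67NR and 2861 in naive. Every tumour sum lay above every naive sum. The log2 difference was 1.71 ± 0.30 in 67NR over naive (SE, edgeR adjusted p = 0.0536) and 1.29 ± 0.30 in 4T1 over naive (SE, edgeR adjusted p = 0.140), so Fn1 did not pass. The libraries differed on Fn1 in 67NR, with within-library log2 ratios over naive of 2.23 in the stromal and 1.06 in the other library.

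Tnc had 20.2 CPM in 4T1, 58.5 in 67NR, 8.92 in LPS and 4.61 in naive fibroblasts of the stromal library. Its level in the other library was 296 CPM in 4T1, 259 in 67NR and 45.0 in naive. Every condition measured in both libraries was lower in the stromal one. Both 67NR sums lay above both naive sums. The 4T1 sum of the stromal library lay below the naive sum of the other, so only the within-library order separated 4T1 from naive. Tnc rose in 67NR over naive by 3.05 ± 0.43 on the log2 scale (SE, edgeR adjusted p = 0.0372), and the 4T1 difference was 2.55 ± 0.43 (SE, edgeR adjusted p = 0.0885). The counts were small in the stromal library, with 55 UMIs in 4T1, 539 in 67NR and 11 in naive.

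Thbs1 had 382 CPM in 4T1, 403 in 67NR, 113 in LPS and 152 in naive fibroblasts of the stromal library. Its level in the other library was 929 CPM in 4T1, 728 in 67NR and 348 in naive. All 4 tumour sums lay above both naive sums. Thbs1 rose in 67NR over naive by 1.26 ± 0.16 on the log2 scale (SE, edgeR adjusted p = 0.0358), with 1.41 ± 0.16 in 4T1 over naive (SE, edgeR adjusted p = 0.0732). Thbs2 did not follow it: its sums were 53.2, 62.7, 57.4 and 85.5 CPM in 4T1, 67NR, LPS and naive of the stromal library and 47.6, 54.0 and 42.6 CPM in 4T1, 67NR and naive of the other. Its differences were -0.27 in 4T1 (edgeR adjusted p = 0.652) and -0.08 in 67NR over naive (edgeR adjusted p = 0.891), with opposite signs in the libraries. Thbs4, a pentameric thrombospondin of tendon and muscle matrix, had 14.3, 14.9, 1.51 and 2.51 CPM in 4T1, 67NR, LPS and naive of the stromal library, while in the other it had 31.3 CPM in 4T1, 49.3 in 67NR and 17.4 in naive. The log2 differences of Thbs4 were 1.75 ± 0.30 in 67NR (SE, edgeR adjusted p = 0.0514) and 1.36 ± 0.33 in 4T1 over naive (SE, edgeR adjusted p = 0.150).

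Sparc had 2289 CPM in 4T1, 2800 in 67NR, 1979 in LPS and 1083 in naive fibroblasts of the stromal library, and 3482 CPM in 4T1, 3315 in 67NR and 2015 in naive of the other. The 4 tumour sums lay above both naive sums. Sparc rose in 67NR over naive by 1.06 ± 0.17 on the log2 scale (SE, edgeR adjusted p = 0.0437), with 0.96 ± 0.17 in 4T1 over naive (SE, edgeR adjusted p = 0.0956). Ccn1 had 423, 519, 257 and 358 CPM in 4T1, 67NR, LPS and naive of the stromal library and 480, 462 and 233 CPM in 4T1, 67NR and naive of the other. Its log2 differences were 0.76 ± 0.21 in 67NR (SE, edgeR adjusted p = 0.138) and 0.67 ± 0.22 in 4T1 over naive (SE, edgeR adjusted p = 0.236). Ccn2, which like Ccn1 is a known target of YAP and TGF-beta, had 12.9, 44.2, 9.07 and 8.38 CPM in 4T1, 67NR, LPS and naive of the stromal library, and 52.6, 44.6 and 15.1 CPM in 4T1, 67NR and naive of the other. Its differences were 2.06 ± 0.47 in 67NR (SE, edgeR adjusted p = 0.0914) and 1.45 ± 0.50 in 4T1 over naive (SE, edgeR adjusted p = 0.261). Spp1 stayed between 0 and 6.33 CPM in all 7 fibroblast sums, below the 9.80 CPM of all lymphocytes together. The lymphocyte sum of 4T1 alone was lower, at 5.27 CPM.

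**Figure D2:**
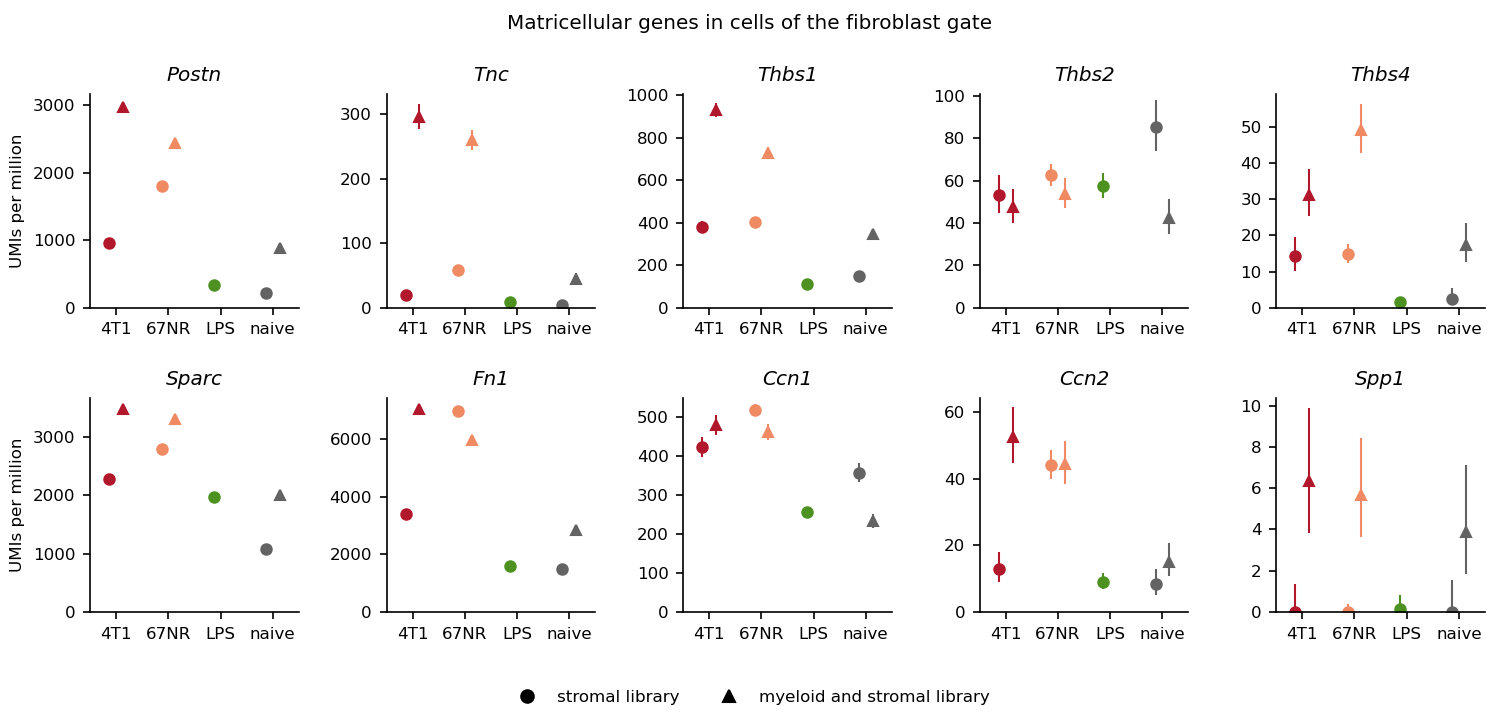
Level in CPM of each gene in the fibroblast gate by condition, 1 point per library (circle, stromal; triangle, myeloid and stromal), with 95% intervals of counting error. The 4T1 and 67NR points lie above the naive point of the same library except for Thbs2 and Spp1 in the stromal library, where Spp1 had no UMI in 4T1, 67NR or naive fibroblasts.

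Of the 10 genes, all tested in fibroblasts, 4 rose in 67NR over naive, against 0.911% of all 12077 genes that rose and 0.464% that fell. The genes were chosen with earlier results of these data known, so the shares are not an independent comparison. In 4T1 over naive 0 of 10 passed and 0% of all genes did. edgeR gave 1798 genes with an unadjusted p under 0.05 there, and DESeq2 called 190. In 4T1 over 67NR 0 of 10 passed, with log2 differences of -0.61 to 0.19, where 489 genes had an unadjusted p under 0.05. Within the stromal library 3 of 9 genes were 2-fold or more lower in 4T1 than in 67NR fibroblasts (background 2.08%): Tnc (log2 ratio -1.53), Fn1 (-1.04) and Ccn2 (-1.78). Within the other library 0 of 9 were 2-fold apart (background 2.31%). These comparisons share their naive or 67NR sums. The calls rest on small margins: without the naive sum of either library 0 of the 10 genes passed, and with no replicate block for the library Postn had 1.97 (edgeR adjusted p = 0.449), Tnc 2.69 (edgeR adjusted p = 0.563), Thbs1 1.20 (edgeR adjusted p = 0.514) and Sparc 1.01 (edgeR adjusted p = 0.413). With a hashtag ratio of 10 Postn (2.02, edgeR adjusted p = 0.177), Thbs1 (1.22, edgeR adjusted p = 0.0637) and Sparc (1.05, edgeR adjusted p = 0.0809) no longer passed.

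Some other measures of the fibroblast gate also differed between conditions. The 15 immediate early and stress genes that dissociation can induce summed to 20216 CPM in 4T1, 19278 in 67NR, 18073 in LPS and 25764 in naive fibroblasts of the stromal library, and to 13720, 16120 and 18877 CPM in 4T1, 67NR and naive of the other, so naive sums were highest in each. Mural markers (7 genes) were level in the stromal library, at 360 to 372 CPM, and were 450 CPM in 4T1, 481 in 67NR and 398 in naive of the other. Of the 5 T cell markers, Cd3e made up most of a sum of 63.2, 91.3, 18.1 and 24.7 CPM in 4T1, 67NR, LPS and naive of the stromal library, and 253, 215 and 134 CPM in 4T1, 67NR and naive of the other. The 7 lymphatic markers summed to 2800, 2768, 755 and 1557 CPM in 4T1, 67NR, LPS and naive fibroblasts of the stromal library and to 3173, 3946 and 2147 CPM in 4T1, 67NR and naive of the other, higher in both tumour groups. Of these markers Prox1, Flt4, Lyve1 and Mmrn1 were each at or below 4.12 CPM in all 7 sums. The part of these lists in the results was not tested.

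In a gate sum, more transcript per cell and more cells of a kind that holds it cannot be told apart, so subsets of the gate were set side by side. T-zone reticular cells were taken as cells with at least 3 of Ccl19, Ccl21a, Il7, Bst1 and Grem1. Adventitial fibroblasts were taken as cells with at least 5 of Pi16, Dpp4, Cd34, Ly6c1, Anxa3 and Sema3c and fewer than 3 of the T-zone genes. The subsets, which by this rule share no cell, held different matricellular genes. Tnc, Thbs4, Ccn1 and Thbs2 were higher in the T-zone subset in 7 of 7 sums. Fn1 was higher in the adventitial subset in 7 of 7 sums, and Postn and Sparc in 6 of 7, with LPS of the stromal library as the exception for both. These subsets hold as few as 23 cells per sum and were not tested.

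Tnc in the T-zone subset had 113 CPM in 4T1, 233 in 67NR, 44.1 in LPS and 15.4 in naive of the stromal library, the last from 4 UMIs. Within the other library it had 1824 CPM in 4T1, 1015 in 67NR and 258 in naive. The 4T1 value lay above the highest sum of the lymphatic endothelial gate, 1319 CPM. In the adventitial subset Tnc was at or below 4.01 CPM in 6 of 7 sums and 61.1 CPM in 4T1 of the myeloid and stromal library. Thbs4 was almost confined to the T-zone subset, with 107, 114, 7.87 and 15.4 CPM in 4T1, 67NR, LPS and naive of the stromal library and 240, 242 and 155 CPM in 4T1, 67NR and naive of the other. In the adventitial subset Thbs4 had no UMI in 6 of 7 sums and 0.191 CPM in the last. The 5% of fibroblasts with most Thbs4 held 93.3 to 100% of its UMIs in each sum. A Thbs4 UMI was found in 3.24% of fibroblasts of the stromal and 7.68% of the other library. The 5% shares are thus largely fixed by rare detection.

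Postn in the adventitial subset had 1948 CPM in 4T1, 2727 in 67NR, 382 in LPS and 419 in naive of the stromal library, and 3890, 4436 and 1950 CPM in 4T1, 67NR and naive of the other. In the T-zone subset Postn stayed between 180 and 587 CPM, and the highest value was that of LPS. Fn1 in the adventitial subset reached 6638, 11332, 2603 and 3476 CPM in 4T1, 67NR, LPS and naive of the stromal library, and 10596, 10698 and 5697 CPM in 4T1, 67NR and naive of the other. Within each of these subsets Postn, Fn1, Sparc, Ccn1 and Thbs1 were higher in 4T1 and in 67NR than in naive in 2 of 2 libraries. The adventitial subset was also a larger share of the gate in tumour nodes, at 38.6% in 4T1, 51.0% in 67NR, 45.0% in LPS and 25.5% in naive of the stromal library and 52.3%, 39.4% and 35.1% in 4T1, 67NR and naive of the other. Median UMIs per cell were 16738.5 in 4T1, 15777 in 67NR, 17612.5 in LPS and 12340 in naive of the stromal library, and their part in these shares of sorted cells was not tested.

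**Figure D3:**
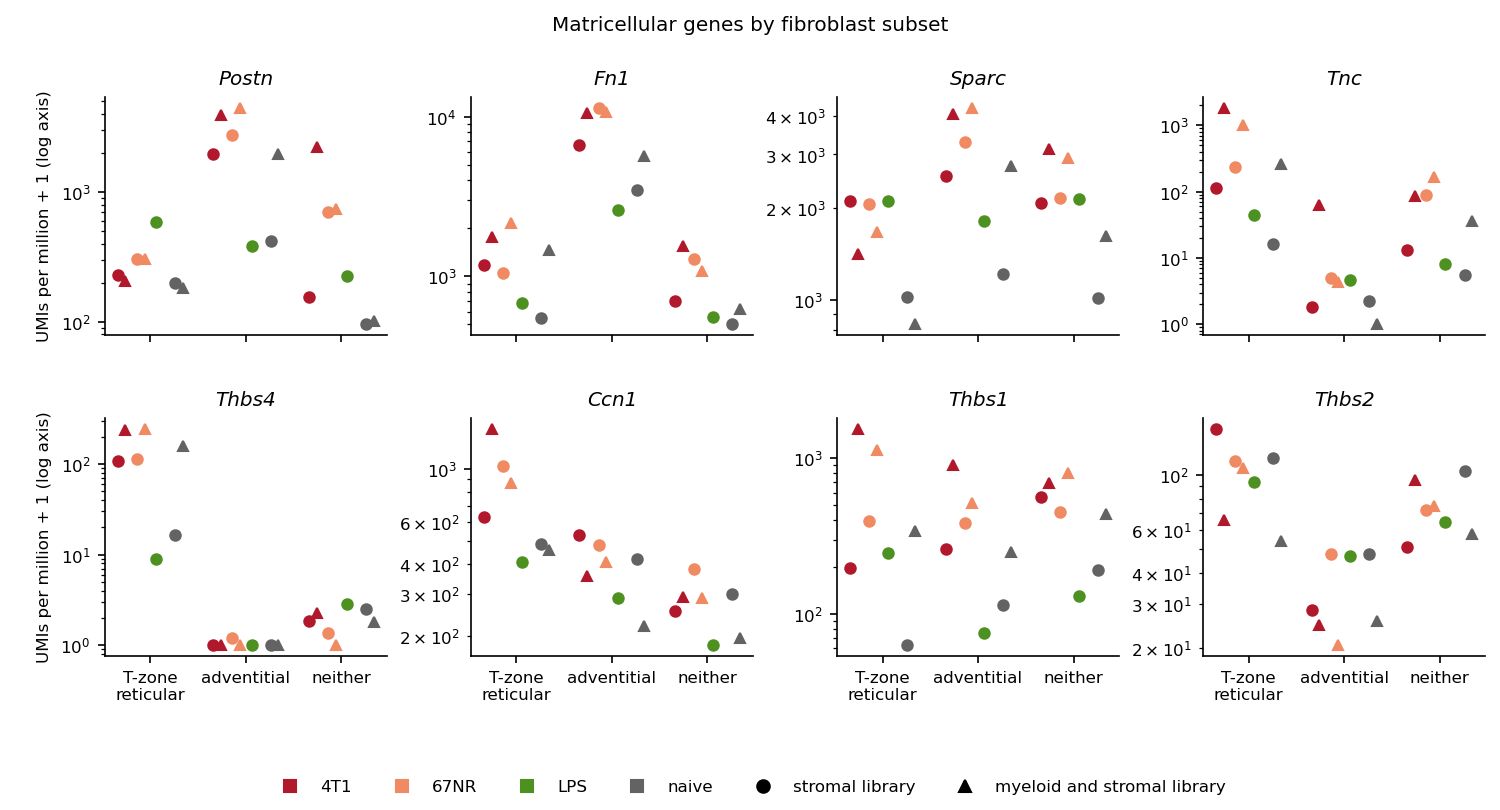
CPM + 1 (log axis) of 8 genes in T-zone reticular, adventitial and remaining cells of the fibroblast gate, by condition (colour) and library (circle, stromal; triangle, myeloid and stromal). Tnc and Thbs4 stand highest in the T-zone subset and Fn1 in the adventitial subset in every sum.

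Cells with UMIs of both Smpd3 (a sphingomyelinase) and Duox2 (a dual oxidase), genes that rose in 67NR over naive fibroblasts by 1.89 ± 0.32 and 2.66 ± 0.27 on the log2 scale (SE, edgeR adjusted p = 0.0492 and 0.0327), had high Fn1. They were 22.2% of 4T1, 34.9% of 67NR, 5.53% of LPS and 6.38% of naive fibroblasts in the stromal library and 36.2%, 29.5% and 10.5% of 4T1, 67NR and naive in the other. Their Fn1 was 8437, 13038, 3859 and 4692 CPM in 4T1, 67NR, LPS and naive of the stromal library and 12094, 12016 and 8525 CPM in 4T1, 67NR and naive of the other. Smpd3 and Duox2 were chosen with earlier results of these data known, so their rise and these cell shares are not independent of them. Without every cell that held Smpd3 or Duox2, the 67NR over naive difference was 1.44 for Postn (edgeR adjusted p = 0.338) and 0.78 for Sparc (edgeR adjusted p = 0.0576), so these calls ended. Under the same setting Fn1 was 0.79 (edgeR adjusted p = 0.0450), Tnc 3.53 (edgeR adjusted p = 0.0143), Thbs1 1.38 (edgeR adjusted p = 0.0129) and Thbs4 2.30 (edgeR adjusted p = 0.0139).

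LPS, a bacterial ligand of Tlr4, was measured in the stromal library alone, with 1 sum per condition and no test. Fibroblasts of LPS nodes differed from naive ones by less than 2-fold in all 8 genes that reached 50 UMIs in either sum, where 2.27% of 9458 genes differed by 2-fold or more. Sparc had a log2 ratio of 0.87 [0.81 to 0.93], Postn 0.67 [0.53 to 0.81] and Tnc 0.95 [0.01 to 2.03], the last from 59 and 11 UMIs in LPS and naive. Thbs1 had -0.43 [-0.61 to -0.24], Ccn1 -0.48 [-0.60 to -0.36] and Thbs2 -0.57 [-0.82 to -0.32], while Fn1 had 0.10 [0.05 to 0.16]. The tumour ratios in the same library, against the same naive sum, were 2.17 in 4T1 and 3.08 in 67NR for Postn, and 1.19 and 2.23 for Fn1. In 4T1 over naive 5 of 7 genes were 2-fold or more higher (background 2.58%) and in 67NR over naive 7 of 9 (background 5.15%). In the other library it was 6 of 9 genes in both 4T1 (background 2.66%) and 67NR over naive (background 3.23%). Under other settings some LPS ratios passed 2-fold: Postn was 1.13 with a hashtag ratio of 10, Thbs2 -1.13 and Sparc 1.02 in thinned cells, and Postn 1.17, Tnc 1.39 and Sparc 1.01 without cells that held Smpd3 or Duox2. Thbs1 turned to 0.024 in thinned cells and 0.11 without cells that held Smpd3 or Duox2.

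Lymphatic endothelial cells, which line the sinuses, held a different set, and the values rest on 20 to 64 cells per condition in 1 library. Of 146 cells that reached the 4 markers of this gate 72 had just 4, so the choice of the gate weighs on these values. With 1 more marker needed, the naive sum fell below the 20 cells required. The ratios over naive could therefore not be checked in a stricter gate. Tnc was 1130 CPM in 4T1, 1319 in 67NR, 750 in LPS and 595 in naive nodes. Its log2 ratio over naive was 0.93 [0.70 to 1.16] in 4T1, 1.15 [0.93 to 1.37] in 67NR and 0.33 [0.06 to 0.61] in LPS. Ccn1 was 769, 573, 159 and 171 CPM in 4T1, 67NR, LPS and naive nodes, with ratios of 2.17 [1.77 to 2.60] in 4T1 and 1.75 [1.34 to 2.17] in 67NR, and -0.10 [-0.67 to 0.47] in LPS. Sparc was 652, 584, 458 and 206 CPM in 4T1, 67NR, LPS and naive nodes, so naive was lowest. Its ratios were 1.67 [1.29 to 2.06], 1.51 [1.14 to 1.90] and 1.15 [0.73 to 1.59] in 4T1, 67NR and LPS. With 1 marker fewer needed the Sparc ratios were 0.43, 0.26 and 0.25, all under 2-fold. In cells thinned to 1000 UMIs the 67NR ratio of Tnc was 0.50.

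Postn was 621 CPM in 4T1, 790 in 67NR, 552 in LPS and 1092 in naive lymphatic endothelial cells, with ratios of -0.81 [-1.02 to -0.61], -0.47 [-0.65 to -0.28] and -0.98 [-1.25 to -0.72] in 4T1, 67NR and LPS over naive. With 1 marker fewer needed the Postn ratios were -0.09 in 4T1 and 0.12 in 67NR, so no direction is read from them. Fn1 was 533, 553, 189 and 339 CPM in 4T1, 67NR, LPS and naive, higher in the tumour groups and lower in LPS. Thbs1 had 39 UMIs in 4T1, 213 in 67NR, 33 in LPS and 4 in naive, with ratios of 2.06 [0.59 to 4.01], 3.79 [2.41 to 5.67] and 2.94 [1.45 to 4.90]. The 67NR ratio of Thbs1 was 0.44 in thinned cells, under 2-fold. Genes 2-fold or more higher numbered 2 of 5 in 4T1 (background 5.34%), 4 of 6 in 67NR (background 5.81%) and 1 of 5 in LPS over naive (background 6.84%). The fibroblast markers summed to 52.9, 55.7, 53.1 and 34.8 CPM in 4T1, 67NR, LPS and naive of this gate, against 14131 CPM or more in the fibroblast gates. The lymphatic markers summed to 3983, 3081, 3590 and 1892 CPM and the blood endothelial ones to 2886, 2608, 3356 and 1807 CPM in 4T1, 67NR, LPS and naive, lowest in naive for both. Their part in the results was not tested.

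Blood endothelial cells held Sparc and Ccn1 and little else of the list, and their levels were close in all conditions. Sparc was 1614 CPM in 4T1, 1397 in 67NR, 1502 in LPS and 1341 in naive nodes. The ratios over naive were 0.27 [0.18 to 0.36] in 4T1, 0.06 [-0.03 to 0.15] in 67NR and 0.16 [0.06 to 0.26] in LPS. Ccn1 was 153, 180, 165 and 207 CPM in 4T1, 67NR, LPS and naive nodes, with a ratio of -0.43 [-0.69 to -0.17] in 4T1. Thbs1 stood at 37.7, 32.2, 32.1 and 31.8 CPM in 4T1, 67NR, LPS and naive. None of the 3 genes with 50 UMIs or more was 2-fold apart in 4T1 (background 1.70%) or 67NR over naive (background 1.85%), nor any of 2 in LPS over naive (background 2.37%).

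**Figure D4:**
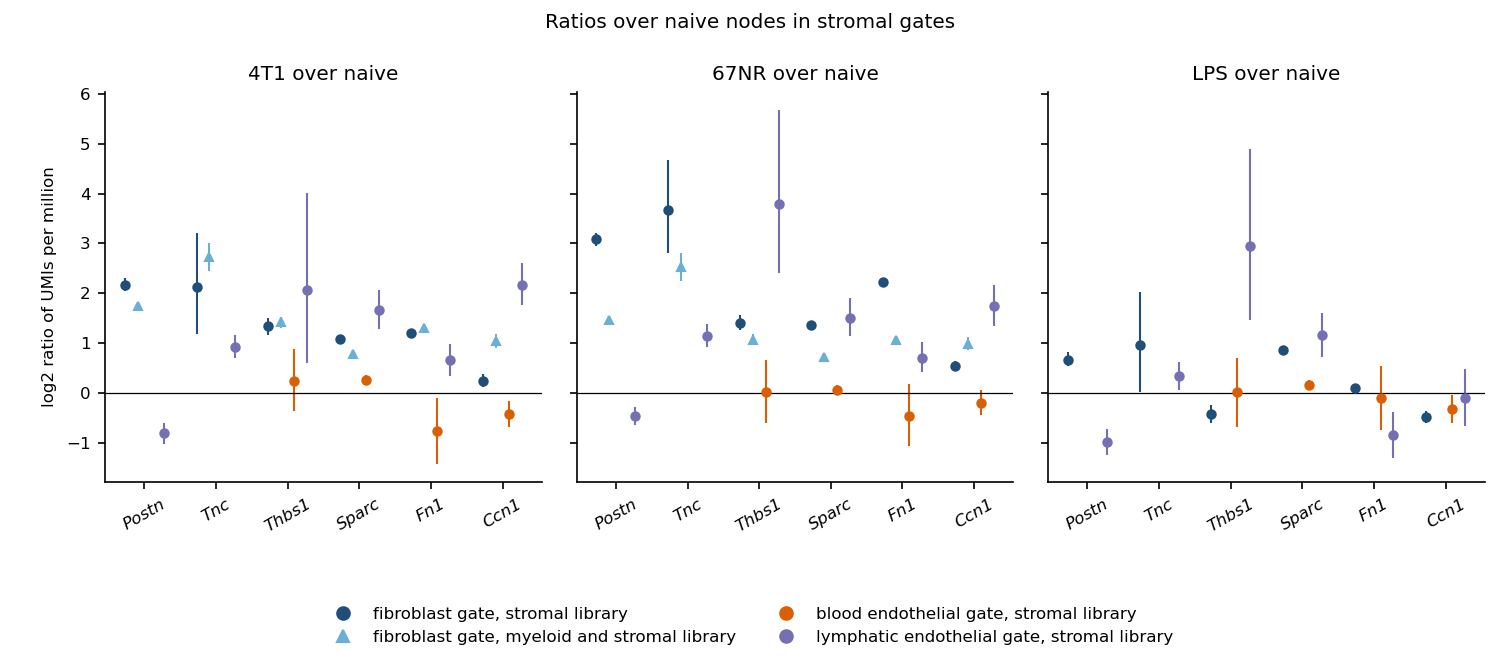
Log2 ratios over naive of CPM for 6 genes in fibroblast, blood endothelial and lymphatic endothelial gates, for 4T1, 67NR and LPS, with 95% intervals of counting error. Ratios with fewer than 20 UMIs in both groups are not drawn. Fibroblast points lie above 0 in the tumour panels, blood endothelial Sparc and Ccn1 lie near 0, and lymphatic Postn lies below 0 in all 3 panels, though above 0 in 67NR with 1 marker fewer needed (0.12).

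Among myeloid cells, Thbs1 was lower in neutrophils of 4T1 nodes than in those of 67NR or naive nodes, and Spp1 was higher in neutrophils of 67NR nodes. These values come from the myeloid and stromal library, with 1 sum per condition and no test. Thbs1 stood at 55.3 CPM in 4T1 (120 UMIs), 601 in 67NR and 512 in naive neutrophils (1498 UMIs). The log2 ratio was -3.21 [-3.49 to -2.94] in 4T1 over naive, -3.44 [-3.72 to -3.18] in 4T1 over 67NR and 0.23 [0.14 to 0.32] in 67NR over naive. With each cell thinned to 1000 UMIs, at least 1 Thbs1 UMI was found in 4.25% of 4T1, 18.4% of 67NR and 19.6% of naive neutrophils, against 15.8%, 36.2% and 34.7% unthinned, at median depths of 6389, 5498 and 3586 UMIs in 4T1, 67NR and naive. Thinning left out 1, 3 and 1 cells of 4T1, 67NR and naive.

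Spp1 stood at 900 CPM in 4T1, 2398 in 67NR and 583 in naive neutrophils, all far above the 9.80 CPM of lymphocytes. Its log2 ratio was 0.63 [0.53 to 0.72] in 4T1 over naive, 2.04 [1.97 to 2.11] in 67NR over naive and -1.41 [-1.48 to -1.35] in 4T1 over 67NR. At 1000 UMIs per cell, 20.1% of 4T1, 46.0% of 67NR and 17.8% of naive neutrophils had a Spp1 UMI, against 37.3%, 63.9% and 28.6% unthinned. Of the 5 genes with at least 50 UMIs, 2 were 2-fold or more lower in 4T1 over naive (background 9.95%) and 1 was higher in 67NR over naive (background 2.95%). The median of all genes in this gate lay at 0.20 in 4T1 over 67NR and -0.27 in 67NR over naive, so ratios are read against that shift. Neutrophil markers summed to 177395 CPM in 4T1, 233008 in 67NR and 88536 in naive, monocyte markers to 230, 418 and 295 CPM and the stress genes to 6673, 6866 and 13557 CPM. Their part in these differences was not tested.

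Monocytes and macrophages had Thbs1 at 758 CPM in 4T1, 1295 in 67NR and 887 in naive cells. The log2 ratio was -0.23 [-0.29 to -0.17] in 4T1 over naive and 0.55 [0.48 to 0.61] in 67NR over naive. Fn1, which macrophages can also make, ran in the same order, at 278 CPM in 4T1, 578 in 67NR and 360 in naive. With 1 more marker needed, Fn1 of 4T1 over naive was 0.12 against -0.38, so 4T1 was then above naive. Its ratio of 4T1 over 67NR was -1.06 [-1.13 to -0.98]. That ratio and that of Postn, which was close to its level in lymphocytes here, were the 2 of 5 genes that were 2-fold or more lower (background 0.786%). Spp1 was 106, 96.2 and 59.8 CPM in 4T1, 67NR and naive, with ratios over naive of 0.82 [0.60 to 1.05] in 4T1 and 0.69 [0.43 to 0.95] in 67NR. C1qa, a macrophage gene, was 301, 88.7 and 620 CPM in 4T1, 67NR and naive of this gate and Ly6c2, a monocyte gene, 656, 934 and 813 CPM. The 8 monocyte and macrophage markers summed to 3137, 2886 and 3321 CPM and the 6 neutrophil markers to 2069, 702 and 2068 CPM in 4T1, 67NR and naive, so neutrophil markers were lowest in 67NR. Their part in these values was not tested. When the gate needed 1 more marker, Fn1 of 67NR over naive was 1.27 against 0.68, and Spp1 of 67NR over naive was 0.02.

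Dendritic cells held the list at low levels. Thbs1 was 25.3 CPM in 4T1, 23.6 in 67NR and 11.7 in naive, the last near the 10.9 CPM of lymphocytes, with ratios over naive of 1.11 [0.69 to 1.53] in 4T1 and 1.01 [0.55 to 1.47] in 67NR. With 1 more marker needed these Thbs1 ratios were 0.43 in 4T1 and 0.87 in 67NR, under 2-fold, and with 1 marker fewer that of 67NR was 2.20. Thbs4 was 5.23 CPM in 4T1 (18 UMIs), 3.17 in 67NR (9 UMIs) and 12.9 in naive (118 UMIs), against none in lymphocytes. Its ratios were -1.30 [-2.11 to -0.58] in 4T1 and -2.02 [-3.19 to -1.05] in 67NR over naive, and both turned positive in cells thinned to 1000 UMIs. In each of these 2 comparisons 1 of 4 genes was 2-fold higher and 1 lower, where 4.48% of genes in 4T1 and 4.27% in 67NR over naive were 2-fold apart in either direction.

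**Figure D5:**
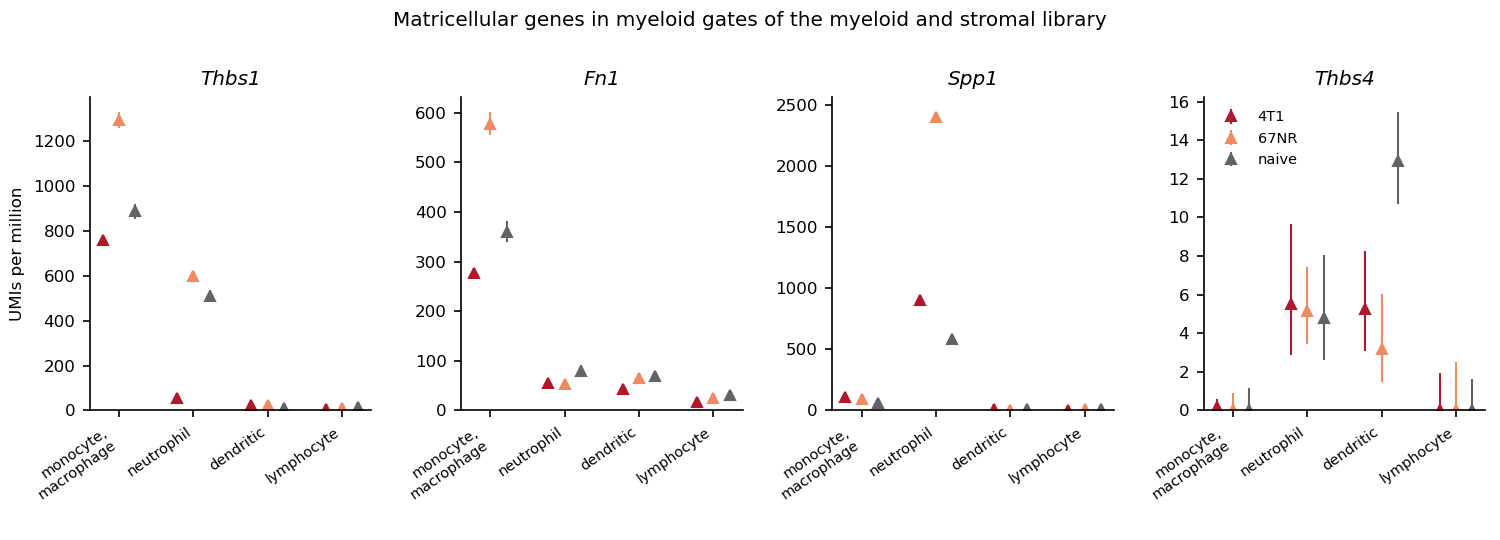
Level in CPM of Thbs1, Fn1, Spp1 and Thbs4 in the monocyte and macrophage, neutrophil, dendritic and lymphocyte gates of the myeloid and stromal library, by condition, with 95% intervals of counting error. Neutrophil Thbs1 is 55.3 CPM in 4T1 and above 500 CPM in 67NR and naive, and neutrophil Spp1 is highest in 67NR.

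The wider families had smaller median differences than the 10 genes in 67NR over naive fibroblasts. The median log2 difference was 1.48 over the 10 genes and -0.02 over all genes. All lists were chosen with earlier results of these data known, so their medians are not an independent comparison. Of 27 other matricellular genes 23 were tested, with a median of 0.31. Ccn3 (a CCN family member) rose by 2.27 ± 0.34 (SE, edgeR adjusted p = 0.0409) and Fbln5 (fibulin-5, an elastic fibre protein) fell by 0.81 on the log2 scale (SE 0.14, edgeR adjusted p = 0.0484). Ccn3 had 29.7, 55.9, 9.37 and 10.5 CPM in 4T1, 67NR, LPS and naive of the stromal library and 96.3, 74.0 and 18.6 CPM in 4T1, 67NR and naive of the other. Of 20 receptor genes 19 were tested, with a median of 0.12. Cd44, a receptor of hyaluronan and osteopontin, rose by 1.59 ± 0.15 (SE, edgeR adjusted p = 0.0327) and Itga5, the alpha chain of the main fibronectin receptor, by 1.26 ± 0.17 (SE, edgeR adjusted p = 0.0370). Cd44 had 320, 415, 109 and 118 CPM in 4T1, 67NR, LPS and naive of the stromal library and 554, 589 and 233 CPM in 4T1, 67NR and naive of the other, so every tumour sum was above every naive sum.

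Of 22 TGF-beta and YAP pathway genes 20 were tested, with a median of 0.68, and 1 rose: Col8a1, a short-chain collagen, by 3.61 ± 0.36 (SE, edgeR adjusted p = 0.0327). Its level was low, at 2.57, 16.8, 3.48 and 0.838 CPM in 4T1, 67NR, LPS and naive of the stromal library and 3.67, 26.2 and 2.71 CPM in 4T1, 67NR and naive of the other. None of the 15 dissociation stress genes passed, with a median of -0.28. In 4T1 over naive no gene of any list passed, and the medians were 1.32 for the 10 genes, 0.23 for other matricellular genes, 0.19 for receptors, 0.60 for TGF-beta and YAP genes and -0.40 for stress genes.

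Across all 27 gate, library and condition sums, the patterns of the 10 genes were set beside those of 12969 genes as Pearson correlations of log2(CPM + 1). The points share libraries and differ mainly by gate, so these values describe which gates hold a gene. Postn was most like Col12a1 (r = 0.973), Car8 (0.959) and Loxl2 (0.959), and Tnc like Hs6st3 (0.962), AW551984 (0.952) and Sema3d (0.941). Fn1 was most like Ccl2 (0.961), C3 (0.950) and Lpar1 (0.939), and Thbs2 like Bicc1 (0.967), Nox4 (0.961) and C1s1 (0.960). Sparc was most like Serpinh1 (0.991), Prss23 (0.986) and Pxdn (0.986), and Ccn1 like Rhoj (0.981), S100a16 (0.981) and Fkbp10 (0.978). Ccn2 was most like Fkbp14 (0.932), Gpx7 (0.926) and S100a16 (0.925). Spp1 was most like Cd300lf (0.983), Trem1 (0.980) and S100a8 (0.977), genes of neutrophils and other myeloid cells. Thbs1 had the weakest neighbours with Thbs4: Gm13986 (0.878), Rab1a (0.875) and Morrbid (0.835) for Thbs1, and Has2 (0.824), Frmd5 (0.790) and Dsc2 (0.790) for Thbs4. Among the 10 genes themselves the closest pair was Sparc and Ccn1 (0.959), and Spp1 with Ccn1 was the most opposed (-0.733).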

How the data were processed

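The authors deposited UMI counts per gene and barcode, and hashtag counts per barcode, from Cell Ranger 7.0 and build mm10 (source: the submitters' processing notes). Whether introns were counted is not given in the sources used here. Cells needed 500 UMIs, 250 genes and at most 10% mitochondrial UMIs, and a hashtag with at least 10 UMIs and 3 times the next; droplets with a second hashtag (7.22% and 17.0%) were removed, while doublets within a condition stay. Depth was 36622159 UMIs in the stromal and 94930947 in the myeloid and stromal library. Gates needed 4 of 7 fibroblast, blood or lymphatic endothelial markers, 4 of 8 monocyte and macrophage, 4 of 6 neutrophil and 3 of 8 dendritic markers. Each gate also capped the markers of some other cell types. The lymphatic endothelial gate had no cap on blood endothelial markers, and its cells held a median of 4 of these 7. In all, 214 and 539 cells entered no gate. The markers needed were set on the data, and the 10 genes and all lists were chosen with earlier results of these data known.

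Fibroblast sums (3 conditions, 2 libraries) were tested with edgeR 4.0.16 (R 4.3.3; glmQLFit, glmQLFTest, filterByExpr, TMM) with the library as a block, and adjusted p under 0.05 counted as passing. Conditions of a library were captured together, and the deviations of sums of the same library correlated (r = 0.408 to 0.479). The fit had 2 residual degrees of freedom. In other gates log2 ratios of CPM carry exact conditional binomial 95% intervals, and a gene counted as apart at a log2 ratio of 1 with 50 UMIs in the higher group; 3 UMIs was the floor. The code was tested on simulated data. Named were all 10 genes, up to 3 passing genes per list with the largest change in the condition comparisons of fibroblasts, and 3 most similar genes per member; C1qa and Ly6c2 were named after their values were seen. DESeq2 1.42.0, other filters, gates and thinning were the alternatives. Sums and intervals came from Python 3.11.15 with pandas 2.3.3, scipy 1.17.1 and numpy 2.4.6.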

Additional observations from a re-analysis of the deposited data

Results flagged for a closer look

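In 4 genes every sum of one gate was 2-fold or more higher and every sum of another gate 2-fold or more lower under the same contrast, where 50 UMIs or more stood behind the higher value and the interval left out 0. Smaller opposite differences are not listed, and the differences between gates were not tested. Postn in 4T1 over naive was 2.17 and 1.74 on the log2 scale in fibroblasts of the stromal and of the myeloid and stromal library, and -1.55 in neutrophils, where it was 7.37 CPM in 4T1 and 21.5 CPM in naive cells against 10.2 CPM in lymphocytes. Thbs1 in 4T1 over naive was 1.33 and 1.42 in fibroblasts, -3.21 in neutrophils and 1.11 in dendritic cells. Thbs4 in 67NR over naive was 2.56 and 1.5 in fibroblasts and -2.02 in dendritic cells. Spp1 in 4T1 over 67NR was -1.41 in neutrophils and 1.12 in dendritic cells, the last from 50 and 19 UMIs in 4T1 and 67NR.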

How the results depend on the processing

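In 67NR over naive fibroblasts, the log2 difference stayed above 0 in all 19 settings run for Postn (1.44 to 2.98, past the threshold in 14), Tnc (2.49 to 4.8, in 16), Thbs1 (1.07 to 1.55, in 15) and Sparc (0.78 to 1.31, in 13). In 4T1 over naive the same genes ranged over 1.56 to 2.50, 1.25 to 4.00, 1.22 to 1.57 and 0.80 to 1.16 and passed in 7, 7, 11 and 7 of 19. Where a value below differs, the cause was not tested. Of 1443 values of single genes under these settings, 85 gained a call, 30 lost one and 77 turned sign, 38 of them untested ratios under 2-fold.

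Genes passing in 67NR over naive numbered 166, against 287 with 1 marker fewer, 273 with 1 more, 336 with DESeq2, 14 with a hashtag ratio of 10, 1183 with no gene filter, 543 without mural-marked cells, 0 with no replicate block, and 0 to 585 with 1 sum left out. In 4T1 over naive they numbered 0, against 9 with 1 marker fewer, 13 with 1 more, 54 in cells thinned to 1000 UMIs, 190 with DESeq2, 817 with no filter, 76 without cells holding both Smpd3 and Duox2, 224 without mural-marked cells, 37 without Smpd3 or Duox2 cells and 0 to 494 with 1 sum left out. In 4T1 over 67NR they numbered 0, against 74 with no filter, 2 without mural-marked cells, 1 without Smpd3 or Duox2 cells and 0 to 25 with 1 sum left out. The settings without both-positive or mural-marked cells were chosen after seeing the data.

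Thinned to 1000 UMIs, genes differing from fibroblasts numbered 1802 of 3447 tested in blood endothelial and 780 of 2086 in lymphatic endothelial gates. They numbered 2402 of 4074 in monocyte and macrophage, 3484 of 4396 in neutrophil and 2092 of 3301 in dendritic gates. Unthinned, 10735 to 12129 genes were tested per comparison. Thinning left 52 genes 2-fold apart in LPS over naive fibroblasts, against 487 with a hashtag ratio of 10 and 143 without Smpd3 or Duox2 cells. It left 13 in 4T1 over naive, 15 in 4T1 over 67NR, 22 in 67NR over naive and 22 in LPS over naive blood endothelium, and 5, 1, 12 and 4 in the same comparisons of lymphatic endothelium. In all myeloid cells it left 649 in 4T1 and 271 in 67NR over naive. Thinned sums hold fewer UMIs, so fewer genes can reach the 50 needed, and these 2-fold counts are not shares.

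The signs of tested differences and of ratios past 2-fold turned as follows. For fibroblasts over lymphatic endothelium, Postn was 0.94 with 1 more marker, 0.58 thinned and 0.075 with no filter, and Ccn1 -0.65 with 1 more marker and -0.35 thinned. Thbs1 over neutrophils was 0.28 thinned. In 4T1 over 67NR fibroblasts, Postn was 0.18 with a hashtag ratio of 10 and 0.60 without Smpd3 or Duox2 cells, Tnc 0.034 with no replicate block, Thbs1 -0.0060 with a hashtag ratio of 10, Sparc 0.056 without Smpd3 or Duox2 cells and 0.022 without both-positive cells, and Ccn1 0.015 thinned. With 1 sum left out, that comparison ranged from -0.99 to 0.40 for Postn, -1.43 to 0.16 for Tnc, -0.034 to 0.34 for Thbs1, -0.43 to 0.051 for Thbs2, -0.71 to 0.037 for Thbs4, -0.34 to 0.15 for Sparc, -0.99 to 0.22 for Fn1, -0.44 to 0.21 for Ccn1, -1.70 to 0.16 for Ccn2 and -0.11 to 0.32 for Spp1. Thbs2 in 4T1 over naive was 0.19 without Smpd3 or Duox2 cells, 0.0095 without both-positive cells and -0.68 to 0.24 with 1 sum left out. Thbs2 in 67NR over naive was 0.21 with a hashtag ratio of 10, 0.27 without Smpd3 or Duox2 cells, 0.18 without both-positive cells and -0.48 to 0.44 with 1 sum left out, and Spp1 was -0.046 to 0.62. Thinned, Postn in 4T1 over 67NR monocytes and macrophages was 0.50, and Thbs4 in dendritic cells 1.18 in 4T1 and 1.39 in 67NR over naive. Among ratios under 2-fold, Tnc in lymphatic endothelium of 4T1 over 67NR was 0.60 and Spp1 in monocytes and macrophages of 4T1 over 67NR -0.68 thinned, and Fn1 in dendritic cells of 67NR over naive 0.74 with 1 marker fewer.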
